A study of Mus musculus with 20 samples.

Results

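The ubiquitin-specific peptidases (Usp genes) were taken as all genes whose platform symbol is Usp followed by a number, with or without a letter, on probe sets that carry a single symbol. The array held 48 of them among 18193 genes named in this way. Each gene was read on the probe set with the highest mean over all arrays, and 43 of the 48 reached a log2 signal of at least 5 in at least 2 arrays. The 20 Affymetrix MOE430 version 2 arrays measured RNA, labelled from oligo-dT primers, of germ cell fractions that were sorted from adult testis by their fluorescence with the DNA dye Hoechst. All fractions came from C57BL/6 x DBA/2J F1 males, 10 to 16 weeks of age per the labels, and the study's methods describe RNA pooled from several sorts. There were 4 arrays of spermatogonia (Sp), 3 of pre-leptotene (pL), 3 of leptotene-zygotene (LZ), 1 of early-pachytene (eP), 2 of mid-pachytene (mP), 1 of late-pachytene (lP) and 2 of diplotene (D) spermatocytes, and 4 of round spermatids (RS). Signals were the GC-RMA intensities deposited by the authors, taken to log2, and neighbouring replicated fractions were compared with limma at an adjusted p of 0.05. The single eP and lP arrays are given as levels without a test of their own. A probe set's log2 signal depends on its probes, so levels were compared between fractions and not between genes.

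Ubiquitin-specific peptidases are cysteine proteases that remove ubiquitin from proteins, and they form the largest family of deubiquitinating enzymes. Ubiquitin is attached by E1, E2 and E3 enzymes, and its removal can rescue a protein from the proteasome, change its traffic through membranes, or reverse the marking of histones H2A and H2B. In the testis histone ubiquitination is known for its part in the silencing of the sex chromosomes in pachynema and in the later exchange of histones for protamines.

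The fractions were checked against marker genes. Spermatogonial markers (6 genes) had summed log2 signals of 14.4 to 15.1 in Sp and of 6.82 to 10.0 in RS. They overlapped Sp in pL (14.734 to 14.996) and LZ (14.801 to 15.081), and did not set these fractions apart. Leptotene-zygotene markers (5 genes) were not highest in LZ (11.065 to 12.334), and reached 12.101 to 13.978 in mP and 12.034 to 13.7 in D. Pachytene markers (6 genes) had 16.11 to 16.406 in mP, but also 16.367 to 16.763 in RS. The Leydig and peritubular list ran from 8.234 to 11.478 over all arrays. Round spermatid markers, which include the protamines Prm1 and Prm2, had a mean log2 signal of 13.2 to 13.8 in the RS arrays, of 10.98 to 12.77 in the Sp arrays and of 9.77 to 10.79 in the pL arrays, and their summed signal in Sp (15.3 to 17.2) overlapped that in RS (16.3 to 16.8). The mean log2 signal of the round spermatid markers was 10.75 to 11.11 in LZ, 12.31 in eP, and 11.86 and 12.52 in mP. This mean was 10.10 in lP, and 11.40 and 11.73 in D. Spermatid transcripts were therefore measured in every fraction, and among the Sp arrays most in replicates 2 and 1. Macrophage and leukocyte markers (10 genes) had a mean log2 signal of 7.46, 5.85, 5.14 and 7.15 in the Sp arrays and of 6.31 in pL replicate 1, against at most 3.14 in each of the other arrays. Of the Sertoli cell markers Sox9, Amh, Gata4 and Fshr did not reach the signal limit, while the summed signal of that list was 8.80 to 12.6 over all arrays. In sorted pools, fewer cells of a type and less RNA per cell cannot be told apart.

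Nearly all measured Usp genes varied across meiosis. In the moderated F test over the 8 fractions 41 of the 43 genes passed (95.3%), where 78.7% of all 22396 probe sets tested did. The genes that did not pass were Usp49 (adjusted p = 0.103) and Usp54 (adjusted p = 0.0672). Each Usp gene was read on its probe set of highest mean, whereas the share of all probe sets counts every one. With the mean over a gene's probe sets, 40 of 43 Usp genes passed, where 85.4% of all genes did. Among all 43 genes, Usp49 and Usp54 included, the highest mean stood in Sp for 4, in pL for 9 and in LZ for 6. It stood in lP for 11, in D for 2 and in RS for 11, and in eP or mP for 0. The lowest mean stood in RS for 16 genes and in pL for 10. By this measure 19 genes were highest before pachynema, and 24 from lP on. The place of the highest mean does not give the direction of the whole course. Usp24, Usp37, Usp39 and Usp40 were highest in lP, lowest in RS, and called as falls from Sp to RS. For Usp24 the lP value (11.18) hardly differed from the LZ mean (11.17). Another Usp24 probe set fell likewise from Sp to RS (-1.52 ± 0.23, limma adjusted p = 2.15e-05), and a further one was not called (0.56 ± 0.32, adjusted p = 0.13). The 11 maxima in lP rest on 1 array, and the places of the maxima over all probe sets were not counted.

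**Figure D1:**
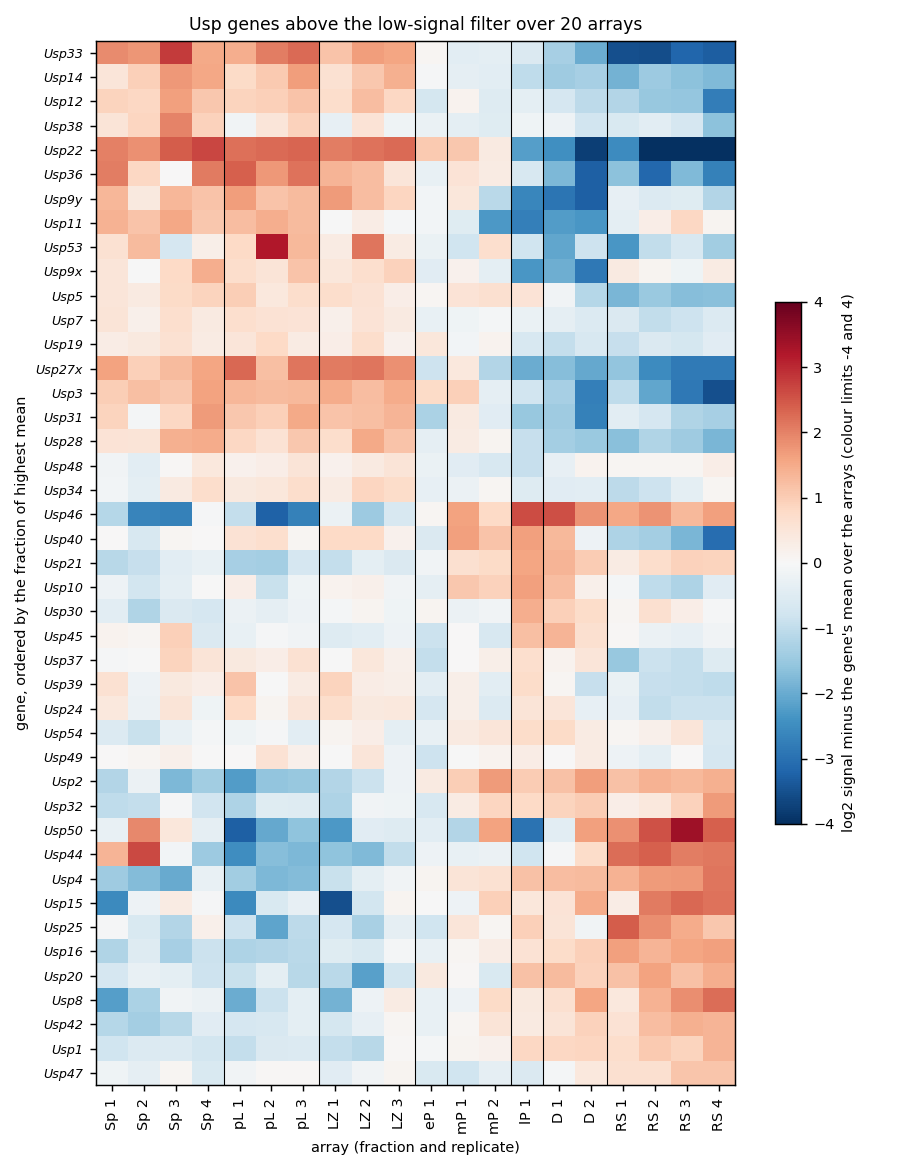
Log2 signal of the 43 Usp genes above the signal limit (rows, ordered by the fraction of highest mean) in the 20 arrays (columns, by fraction and replicate), each row shown relative to its own mean over the arrays. Usp22, Usp33 and Usp36 are high in the columns up to LZ and low in D and RS, and Usp4, Usp16 and Usp42 run the other way.

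Few changes fell on the steps before pachynema. From Sp to pL limma called 0 rises and 0 falls among the 43 genes, where 0.0714% of all probe sets rose and 0.415% fell, and 4 Usp genes had an unadjusted p under 0.05. From pL to LZ it also called 0 rises and 0 falls, against 1.86% and 0.165% of all probe sets, and 5 genes had an unadjusted p under 0.05. The calls began at the step from LZ to mP, with 3 rises and 7 falls, where 13.7% of all probe sets rose and 15.3% fell. From mP to D there were 3 rises and 9 falls (background 6.56% and 12.7%), and from D to RS 4 rises and 6 falls (background 10.9% and 14.2%). The shares of Usp genes called as rises and falls were 6.98% and 16.3% at the first of these steps, 6.98% and 20.9% at the second and 9.30% and 14.0% at the third. The share of rises was below the background at the first step, and the share of falls above it at the second. With 43 genes these shares rest on few calls, and their difference from the background was not tested. The median change of the Usp genes was -0.15, -0.06 and -0.11 on the log2 scale at these steps, beside -0.15, -0.02 and -0.10 over all probe sets.

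These counts moved with single arrays and with the project in which an array was run, a number that the study's own column names carry. The share of all probe sets called moved with them. With the array project as a block, 24 genes were called from LZ to mP in place of 10, with 10 rises and 14 falls, and the share of all probe sets called went from 28.9% to 40.6%. Without mP replicate 2 the calls of that step dropped to 1 (9.38% of all probe sets) and without LZ replicate 2 to 6 (21.1%). From mP to D, where 19.3% of all probe sets were called with all arrays, the Usp calls dropped to 3 without mP replicate 1 (8.48% of all probe sets) and to 4 without D replicate 2 (8.99%). From D to RS they dropped to 5 without D replicate 1, and the share of all probe sets from 25.1% to 11.4%. Within the project or projects that held both fractions of a step, every one of these calls kept the direction of the whole fit. This was so in 10 of 10, 12 of 12 and 10 of 10 cases. The arrays were those that gave the calls, so the directions are not an independent check. From LZ to mP only 1 project held both fractions, with LZ replicate 2 and mP replicate 2.

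The sex-linked genes were chosen by their chromosome. Usp9x, Usp11, Usp26 and Usp27x lie on the X chromosome and Usp9y on the Y chromosome, and the X and Y are known to be silenced in pachytene spermatocytes. Of the 4 that passed the signal limit 3 fell from LZ to mP, where 15.3% of all probe sets fell. From mP to D 2 of the 4 fell (12.7% of all probe sets), and from D to RS 3 of the 4 rose (10.9% of all probe sets). None of the 4 was called in the opposite direction at these steps.

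Usp9x encodes a large peptidase with roles in membrane traffic and signalling. It had log2 signals of 8.77, 8.25, 9.08 and 9.74 in Sp, 8.99, 8.77 and 9.42 in pL, and 8.73, 8.94 and 9.19 in LZ. They were 7.80 in eP, 8.46 and 7.87 in mP, 5.94 in lP, 6.32 and 5.41 in D, and 8.62, 8.38, 8.10 and 8.60 in RS. The D arrays and the lP array lay below all others, and the RS arrays overlapped the Sp arrays again. Usp9x fell by 2.30 ± 0.43 (SE) from mP to D (limma adjusted p = 0.00179) and rose by 2.56 ± 0.38 from D to RS (adjusted p = 0.000203). A second Usp9x probe set fell likewise, from a mean of 7.12 in LZ to 5.43 in mP and 3.79 in D, but stood at 3.75 in RS, with a change from D to RS of -0.04 ± 0.44 (adjusted p = 0.973). The return in round spermatids was therefore seen on 1 of 2 Usp9x probe sets above the limit.

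Usp9y, the Y-linked copy of Usp9x, followed the same course. It had 9.60, 9.14 and 8.75 in LZ, 7.77 in eP, 8.36 and 6.80 in mP, 5.28 in lP, 4.96 and 4.63 in D, and 7.55, 7.36, 7.42 and 6.71 in RS, after 8.30 to 9.23 in Sp and 9.02 to 9.56 in pL. It fell by 1.58 ± 0.43 from LZ to mP (limma adjusted p = 0.0131) and by 2.78 ± 0.47 from mP to D (adjusted p = 0.000843), and rose by 2.46 ± 0.41 from D to RS (adjusted p = 0.000516). The groups did not overlap at any of these steps. Usp9x and Usp9y are near-identical in sequence, and how far their probes detect each other's RNA was not tested.

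Usp11, which acts in homologous recombination repair, began to differ earlier. It had log2 signals of 6.90, 6.65, 7.07 and 6.59 in Sp, 6.74, 6.96 and 6.77 in pL, and 5.50, 5.81 and 5.45 in LZ. They continued at 5.41 in eP, 5.04 and 3.22 in mP, 2.76 in lP, and 3.27 and 3.19 in D, and were 5.12, 5.76, 6.34 and 5.63 in RS. All LZ arrays lay below all pL arrays, a change of -1.24 ± 0.38 that missed the threshold (limma adjusted p = 0.116) and passed it with signals under 5 raised to 5 (adjusted p = 0.0259). All RS arrays lay above both D arrays. The fall from LZ to mP was -1.46 ± 0.43 (limma adjusted p = 0.0183) and the rise from D to RS 2.48 ± 0.40 (adjusted p = 0.000427). Much of either change lay under a log2 value of 5. With signals under 5 raised to 5 the changes were -0.57 (adjusted p = 0.131) and 0.71 (adjusted p = 0.0560).

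Usp27x fell at the entry into mP and remained under the signal limit in round spermatids. It encodes a relative of Usp22 that can act in the same kind of H2B deubiquitination module. It had log2 signals of 6.98, 6.32, 6.65 and 6.96 in Sp, 7.66, 6.59 and 7.52 in pL, and 7.45, 7.53 and 7.20 in LZ. They were 4.55 in eP, 5.80 and 4.19 in mP, 3.41 in lP, 3.69 and 3.34 in D, and 3.79, 2.85, 2.54 and 2.54 in RS. It fell by 2.40 ± 0.47 from LZ to mP (limma adjusted p = 0.00188), and the fall was 1.99 with the signal limit as a floor. In RS it stayed at 3.79 or below, whereas on the main probe sets all RS arrays of Usp9x, Usp9y and Usp11 lay above the D arrays of the same gene. Whether the change of Usp27x from D to RS differed from that of the other X-linked genes was not tested. Usp26, a gene known for expression in the testis, stayed between 2.21 and 3.28 in all 20 arrays and was not tested.

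**Figure D2:**
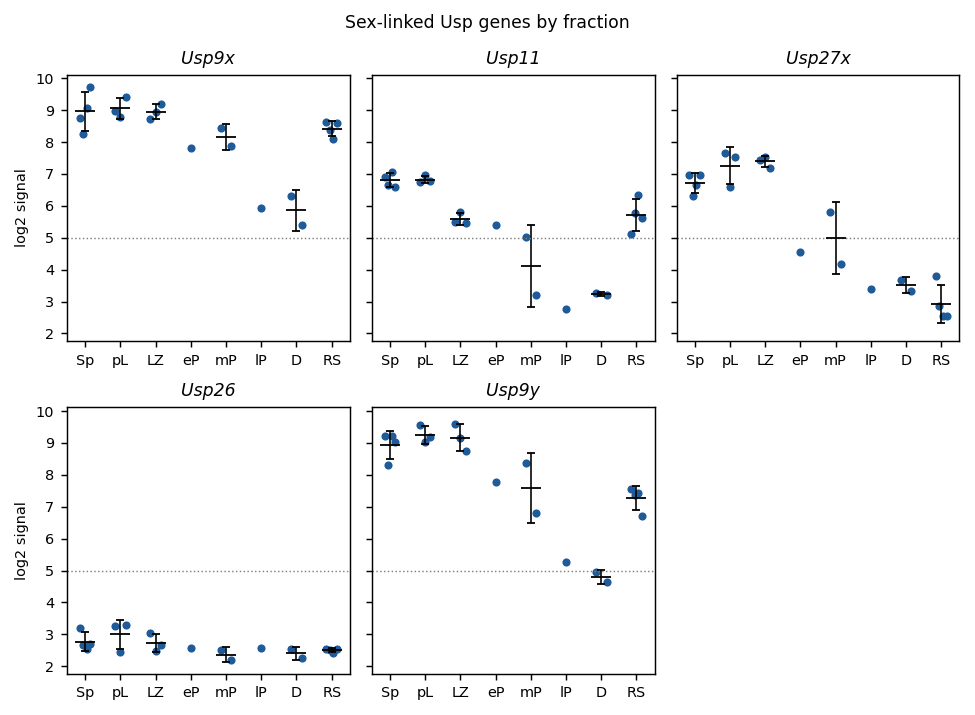
Log2 signal (vertical axis) of the 5 sex-linked Usp genes in the 8 fractions (horizontal axis), with a point for each array, the mean and SD as bars where a fraction has more than 1 array, and the signal limit of 5 as a dotted line. Usp9x, Usp9y and Usp11 are lowest in lP and D and higher in RS, Usp27x remains below 5 from lP to RS, and Usp26 lies below 5 throughout.

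A chosen list of 7 measured Usp genes known to act on ubiquitinated H2A or H2B (Usp3, Usp16, Usp21, Usp22, Usp27x, Usp44 and Usp49) held 3 rises and 3 falls from Sp to RS, and Usp49 passed in neither direction. The list is not complete, as Usp7, Usp12, Usp36 and Usp46 have also been described as acting on these histones. Across all probe sets 31.9% rose and 41.2% fell in this comparison. Usp22, the catalytic subunit of the H2B deubiquitination module of the SAGA coactivator, had the widest range of any Usp gene. The Sp arrays gave log2 signals of 10.92, 10.74, 11.32 and 11.58, the pL arrays 11.12, 11.19 and 11.24, and the LZ arrays 10.96, 11.08 and 11.18. From there the means went down at each fraction, with 9.95 in eP, 9.98 and 9.25 in mP, 6.72 in lP, 6.45 and 5.14 in D, and 6.38, 4.49, 4.54 and 3.94 in RS. The arrays up to LZ all lay above those from eP on. Usp22 fell by 3.82 ± 0.60 from mP to D (limma adjusted p = 0.000498) and by 6.31 ± 0.43 from Sp to RS (adjusted p = 3.29e-09), a fall of 5.80 with the floor at 5. The fall from mP to D kept its call when any mP or D array was left out. The second Usp22 probe set was near the bottom of the scale, with means of 3.93 in Sp, 3.23 in LZ, 2.05 in mP and 2.06 in RS, and did not resolve the later steps.

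Usp3, an H2A deubiquitinase, ran in parallel. Its mean log2 signal was 10.22 ± 0.28 (SD, n = 4) in Sp and 10.40 ± 0.15 (n = 3) in LZ, 9.29 ± 0.93 (n = 2) in mP, 6.97 ± 1.01 (n = 2) in D and 6.63 ± 1.07 (n = 4) in RS. The fall from mP to D was -2.32 ± 0.63 (limma adjusted p = 0.0172), and a second probe set went from 7.42 in mP to 4.29 in D and 2.90 in RS. The other tested Usp3 probe sets were not called at this step, with changes of -0.73 ± 0.63 (adjusted p = 0.482) and -0.19 ± 0.60 (adjusted p = 0.886). Usp16, which removes ubiquitin from H2A at mitosis, went the other way. It had 8.22, 8.91, 8.08 and 8.55 in Sp, 8.19, 8.24 and 8.34 in pL, 8.92, 8.81 and 9.34 in LZ, 9.11 in eP, 9.48 and 9.71 in mP, 9.97 in lP, 10.14 and 10.35 in D, and 11.04, 10.75, 10.98 and 11.04 in RS. The means rose at every fraction from pL to RS, no single step passed the test, and the rise from Sp to RS was 2.51 ± 0.21 (adjusted p = 2.94e-08).

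Usp21, a further H2A deubiquitinase, rose at mP. It had 7.29, 7.83 and 7.65 in LZ, 8.10 in eP, 8.87 and 9.01 in mP, 9.80 in lP, 9.59 and 9.27 in D, and 8.57, 8.95, 9.16 and 9.12 in RS, after 7.11 to 7.93 in Sp and 6.88 to 7.56 in pL. The mP arrays lay above all LZ arrays, and the rise was 1.35 ± 0.32 (limma adjusted p = 0.00604). Usp44, an H2B deubiquitinase and mitotic checkpoint regulator, was high in RS and uneven in Sp. It had 9.59, 10.88, 8.11 and 6.77 in Sp, 5.76, 6.52 and 6.42 in pL, 6.62, 6.47 and 7.23 in LZ, 8.02 in eP, 7.95 and 7.99 in mP, 7.42 in lP, 8.18 and 8.96 in D, and 10.45, 10.62, 10.27 and 10.35 in RS. The order of the Sp arrays was that of their spermatid marker means (11.95, 12.77, 11.40 and 10.98). The rise of Usp44 from Sp to RS was 1.58 ± 0.60 (adjusted p = 0.0261), it missed the threshold with the array project as a block (adjusted p = 0.0916), and within 1 project, that of Sp replicate 2, the difference was -0.26. The part of spermatid RNA in the Sp value of Usp44 was not tested.

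Usp50 had a like course. It had 6.91, 9.11, 7.65 and 6.84 in Sp, 3.93, 5.14 and 5.60 in pL, 4.89, 6.74 and 6.69 in LZ, 6.77 in eP, 6.02 and 8.81 in mP, 4.24 in lP, 6.78 and 8.84 in D, and 9.01, 9.73, 10.60 and 9.59 in RS. Sp replicate 2 overlapped the RS arrays, and the arrays within mP and within D lay over 2 log2 units apart. Usp50 rose by 2.10 ± 0.69 from Sp to RS (limma adjusted p = 0.0122). A second Usp50 probe set changed by 1.302 ± 0.605 and was not called (adjusted p = 0.0635). Usp50 was lowest in lP and pL, where the spermatid marker means were 10.10 and 9.77 to 10.79. Within mP and within D its higher value stood in the array with the higher spermatid marker mean (12.52 and 11.73). The marker mean was also 12.31 in eP and 11.86 in the other mP array, where Usp50 stood at only 6.77 and 6.02. The part of spermatid RNA in its values was not tested.

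**Figure D3:**
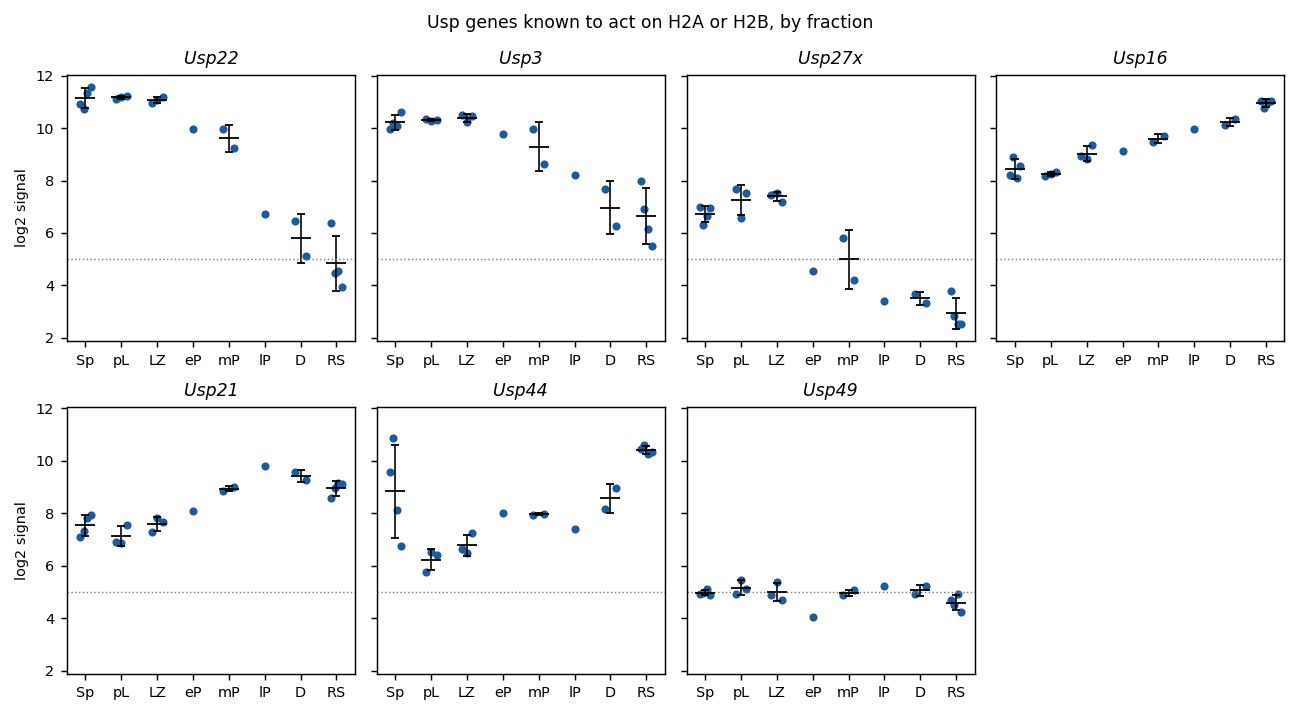
Log2 signal (vertical axis) of the 7 Usp genes of the chosen H2A and H2B list in the 8 fractions (horizontal axis), with a point for each array, mean and SD as bars, and the signal limit of 5 as a dotted line. Usp22, Usp3 and Usp27x go down from LZ on, Usp16 goes up to RS, and the 4 Sp arrays of Usp44 spread from 6.77 to 10.88.

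The largest rise at the entry into mP was that of Usp2, a peptidase known from the circadian clock and from testis isoforms. Its log2 signals were 11.56, 12.50, 10.93 and 11.34 in Sp, 10.51, 11.16 and 11.23 in pL, and 11.58, 11.89 and 12.54 in LZ. They were 13.09 in eP, 13.72 and 14.45 in mP, 13.76 in lP, 13.91 and 14.40 in D, and 13.91, 14.13, 14.04 and 14.18 in RS. Every array from eP on lay above every array before it. The rise from LZ to mP was 2.08 ± 0.42 (limma adjusted p = 0.00222), and the second Usp2 probe set rose by 2.67 ± 0.31 at the same step (adjusted p = 7.57e-05). From mP on the level was held, with no later step called.

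Usp20, which deubiquitinates receptors at endosomes, rose in 2 steps on its main probe set. It had 7.91, 6.81 and 8.26 in LZ, 9.37 in eP, 9.04 and 8.38 in mP, 10.18 in lP, 10.27 and 9.92 in D, and 10.18, 10.59, 10.17 and 10.46 in RS, after 8.18 to 8.69 in Sp and 7.88 to 8.61 in pL. It rose by 1.05 ± 0.38 from LZ to mP (limma adjusted p = 0.0498) and by 1.38 ± 0.42 from mP to D (adjusted p = 0.0293). The first of these calls stood at the threshold, and the mP arrays did not clear the Sp arrays.

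Usp4 and Usp46 rose more gradually. Usp4 is a paralog of Usp11 and Usp15, and its log2 signals were 7.79, 7.47, 7.18 and 8.90 in Sp, 7.84, 7.42 and 7.47 in pL, 8.34, 8.83 and 9.08 in LZ, 9.31 in eP, 9.74 and 9.81 in mP, 10.38 in lP, 10.44 and 10.47 in D, and 10.60, 10.93, 10.95 and 11.35 in RS. From pL on each fraction's arrays lay above those of the fraction before, although no single step passed the test, and the rise from Sp to RS was 3.12 ± 0.32 (limma adjusted p = 1.99e-07). Usp46, a partner of the WD-repeat activator Wdr48, had 5.19, 3.67, 3.62 and 6.26 in Sp, 5.37, 3.10 and 3.61 in pL, 6.10, 4.86 and 5.67 in LZ, 6.39 in eP, 7.93 and 7.12 in mP, 8.92 in lP, 8.91 and 8.11 in D, and 7.87, 8.12, 7.60 and 7.96 in RS. All arrays from mP on lay above all arrays before eP. The highest value stood in the single lP array, and all RS arrays lay below it. Usp46 rose by 3.20 ± 0.57 from Sp to RS (adjusted p = 9.03e-05), or by 2.53 with the floor at 5. Its second probe set rose by 1.53 ± 0.35 already from LZ to mP (adjusted p = 0.00454).

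Several genes were highest around lP and lower again in RS. The clearest was Usp40, with 7.15, 6.51, 7.22 and 7.16 in Sp, 7.72, 7.83 and 7.22 in pL, 7.93, 7.96 and 7.32 in LZ, 6.58 in eP, 8.78 and 8.29 in mP, 8.78 in lP, 8.44 and 6.93 in D, and 5.92, 5.79, 5.30 and 4.11 in RS. All RS arrays lay below all other arrays, and the fall from D to RS was -2.41 ± 0.48 (limma adjusted p = 0.00190). Usp10, which forms a complex with the stress granule protein G3bp1, had 7.24, 7.31 and 6.95 in LZ, 6.74 in eP, 8.17 and 8.02 in mP, 8.73 in lP, 8.32 and 7.30 in D, and 7.03, 6.09, 5.87 and 6.63 in RS, after 6.38 to 7.10 in Sp and 6.21 to 7.35 in pL. It fell by 1.40 ± 0.38 from D to RS (adjusted p = 0.0141), and its change from Sp to RS was not called. Usp37, a cell cycle peptidase of cyclin A, also fell from D to RS, by 1.27 ± 0.32 (adjusted p = 0.00853). Another Usp37 probe set was not called there (-0.44 ± 0.52, adjusted p = 0.636).

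Usp45 and Usp30 were called as rises from mP to D. Usp45, which acts on the DNA repair nuclease subunit Ercc1, had 7.24, 7.33 and 7.56 in LZ, 6.89 in eP, 7.75 and 7.11 in mP, 8.95 in lP, 9.10 and 8.38 in D, and 7.81, 7.52, 7.43 and 7.60 in RS, after 7.16 to 8.71 in Sp and 7.46 to 7.72 in pL. It rose by 1.31 ± 0.40 into D (limma adjusted p = 0.0327) and fell by 1.15 ± 0.35 from D to RS (adjusted p = 0.0245). Its other probe sets were not called from mP to D (1.19 ± 0.46, adjusted p = 0.0821, and 0.77 ± 0.57, adjusted p = 0.4). From D to RS the probe sets disagreed, as another rose by 1.45 ± 0.50 (adjusted p = 0.0433). The direction of Usp45 in round spermatids therefore depended on the probe set. Usp30 sits on the outer mitochondrial membrane and opposes mitophagy. It had 7.07, 7.26 and 6.95 in LZ, 7.25 in eP, 6.90 and 6.98 in mP, 8.58 in lP, 8.09 and 7.86 in D, and 7.22, 7.79, 7.39 and 7.10 in RS, after 5.93 to 6.72 in Sp and 6.76 to 6.92 in pL. Both D arrays lay above both mP arrays, and the rise was 1.03 ± 0.30 (adjusted p = 0.0262). Another Usp30 probe set changed by 0.41 ± 0.42 at this step and was not called (adjusted p = 0.568).

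**Figure D4:**
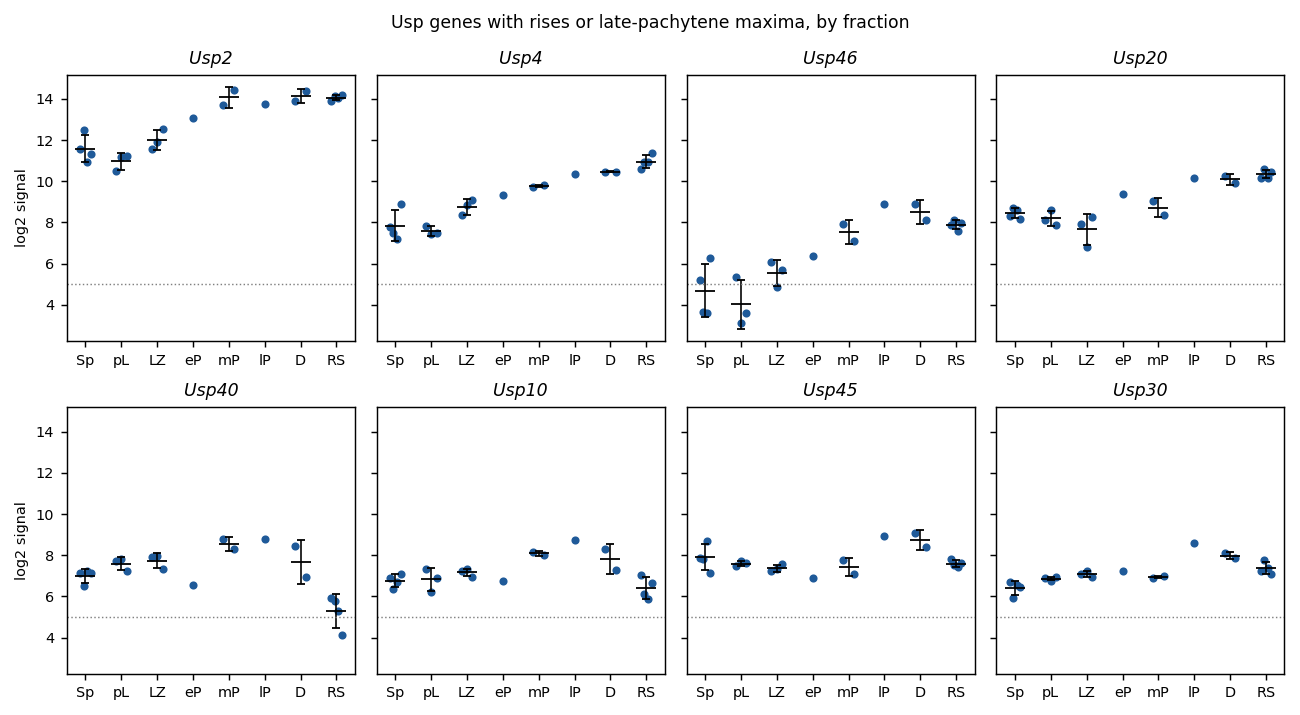
Log2 signal (vertical axis) of 8 Usp genes that rose or were highest around lP, in the 8 fractions (horizontal axis), with a point for each array, mean and SD as bars, and the signal limit of 5 as a dotted line. Usp2, Usp4 and Usp20 (top) have RS means above their lP value. Usp46 (top) and Usp40, Usp10, Usp45 and Usp30 (bottom) are lower in RS than in lP. The RS arrays of Usp46 still lie above its arrays before eP.

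Among the falls outside the histone group, Usp33 went down at every step from LZ on. It is the closest paralog of Usp20 and, like it, acts on receptors at endosomes. Its log2 signals were 8.68, 8.55, 9.61 and 8.32 in Sp, 8.25, 8.84 and 9.08 in pL, 7.95, 8.46 and 8.39 in LZ, 6.89 in eP, 6.39 and 6.40 in mP, 6.23 in lP, 5.49 and 4.80 in D, and 3.27, 3.24, 3.64 and 3.49 in RS. The falls were -1.87 ± 0.37 from LZ to mP (limma adjusted p = 0.00194), -1.25 ± 0.40 from mP to D (adjusted p = 0.0399) and -1.73 ± 0.35 from D to RS (adjusted p = 0.00203), the last of which lay under the floor (-0.24, adjusted p = 0.742). Usp33 thus fell from Sp to RS, by 5.38 ± 0.29 as fitted (adjusted p = 4.42e-10) and by 3.79 with the floor at 5 (adjusted p = 4.73e-09), since all its RS arrays lay under 5, where Usp20 rose (1.90 ± 0.29, adjusted p = 2.44e-05). It was the only Usp gene whose call from LZ to mP held when any LZ or mP array was left out.

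Usp36, a nucleolar peptidase, had log2 signals of 7.99, 6.78, 5.95 and 8.02 in Sp, 8.33, 7.69 and 8.11 in pL, 7.31, 7.19 and 6.42 in LZ, 5.66 in eP, 6.51 and 6.28 in mP, 5.32 in lP, 4.15 and 2.68 in D, and 4.31, 2.80, 4.19 and 3.24 in RS. It fell by 2.98 ± 0.68 from mP to D (limma adjusted p = 0.00588), and by 1.39 with the floor at 5 (adjusted p = 0.0830). The other Usp36 probe set fell by 2.15 ± 0.37 at this step (adjusted p = 0.000933). Usp14, a peptidase bound to the proteasome, fell by 1.41 ± 0.37 from LZ to mP (adjusted p = 0.0106), and Usp5, which takes apart free ubiquitin chains, fell by 1.23 ± 0.34 from mP to D (adjusted p = 0.0165) and again by 1.04 ± 0.29 from D to RS (adjusted p = 0.0152). The third gene of this role, Usp13, did not reach the signal limit. Usp28, known from the DNA damage checkpoint, fell by 1.64 ± 0.38 from mP to D (adjusted p = 0.00703). Usp31 fell by 2.03 ± 0.52 at this step (adjusted p = 0.0118), or by 1.43 with the floor (adjusted p = 0.0363). Another Usp31 probe set changed by -0.045 ± 0.632 there (adjusted p = 0.983). Usp12 and Usp48 fell from LZ to mP (adjusted p = 0.0488 and 0.0218). The other Usp48 probe sets were not called at that step (-1.68 ± 0.62, adjusted p = 0.0539, and -0.70 ± 0.48, adjusted p = 0.294). Usp12 was measured with unlike results, as a second probe set had means of 9.22 in Sp, 6.74 in LZ and 9.14 in RS, where the first had 9.20, 9.01 and 6.35.

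Over the whole course from Sp to RS 37 of the 43 genes were called, 16 as rises (37.2%) and 21 as falls (48.8%), beside the 31.9% and 41.2% of all probe sets given above. The median change was -0.54 for the Usp genes and -0.32 for all probe sets. With the mean over a gene's probe sets, 37 of 43 Usp genes were called, where 79.0% of all genes were. With signals under 5 raised to 5, the largest falls after Usp22 and Usp33 were those of Usp3 (-3.59), Usp14 (-2.87) and Usp12 (-2.85). The fitted falls of Usp27x (-3.80 ± 0.36, limma adjusted p = 1.12e-07) and Usp36 (-3.55 ± 0.48, adjusted p = 5.18e-06) ended under the signal limit, and with the floor they were -1.73 and -2.19. After Usp46, Usp4 and Usp16 the largest rises were those of Usp2 (2.48 ± 0.32), Usp8 (2.44 ± 0.57) and Usp15 (2.33 ± 0.79). Usp8 acts on endosomal receptors and is known from acrosome formation. Usp1, a peptidase of the Fanconi anaemia and PCNA pathways that works with Wdr48, rose by 1.67 ± 0.25, and Usp7, which acts on Mdm2 and p53, fell by 1.17 ± 0.19. Arrays of Sp and RS overlapped for Usp15, Usp34, Usp44, Usp50 and Usp53 and for no other called gene. The genes not called were Usp9x, Usp10, Usp45, Usp48, Usp49 and Usp54.

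Read by role, the 6 genes of endosomal, endoplasmic reticulum and mitochondrial membranes held 4 rises (Usp8, Usp20, Usp30 and Usp32) and 2 falls (Usp19 and Usp33), beside the same 31.9% and 41.2% of all probe sets. The rises of Usp30 and Usp32 from Sp to RS were not called on their other probe sets. The change there was -0.56 ± 0.30 for Usp30 (adjusted p = 0.103) and 0.31 ± 0.24 and -0.85 ± 0.44 for Usp32 (adjusted p = 0.253 and 0.0916). Nor was the fall of Usp19, with -0.365 ± 0.210 and -1.015 ± 0.530 on its other tested probe sets (adjusted p = 0.129 and 0.0959). The DNA repair and checkpoint genes held 2 rises (Usp1 and Usp47) and 3 falls (Usp7, Usp11 and Usp28) among 7. Of the genes listed as pseudoenzymes, whose protein sequences were not examined, Usp39, a splicing factor, fell by 1.05 ± 0.31 (limma adjusted p = 0.00673). Usp53 of the same list fell by 1.69 ± 0.61 (adjusted p = 0.0195), or by 0.78 with the floor at 5 (adjusted p = 0.193). Usp25, a regulator of inflammatory signalling, rose from a mean of 4.55 ± 0.62 (SD, n = 4) in Sp to 6.66 ± 0.56 (n = 4) in RS, and by 1.52 ± 0.47 (SE) from D to RS alone (adjusted p = 0.0249). Usp18, which removes the ubiquitin-like protein Isg15, stayed at or below 3.71 in every array.

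Removing Sp replicates 1 and 2, which held the most spermatid marker signal of the Sp arrays, together with pL replicate 1, which stood apart from the other pL arrays in macrophage marker signal, left 36 of 43 genes called from Sp to RS, with 15 rises and 21 falls, and 35 of these were called with all arrays. Usp15 (1.57, adjusted p = 0.112) and Usp53 (-1.11, adjusted p = 0.181) lost their calls. Sp replicates 3 and 4, with macrophage marker means of 5.14 and 7.15, stayed in that fit, so macrophage signal was not removed from Sp. Usp13, Usp26 and Usp29 had their highest array at 3.64, 3.28 and 3.13, and like Usp18 they did not reach the signal limit in any array. Usp43 reached 5.40 in the lP array only. These 5 genes entered the fit only where no filter on low signals was set.

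**Figure D5:**
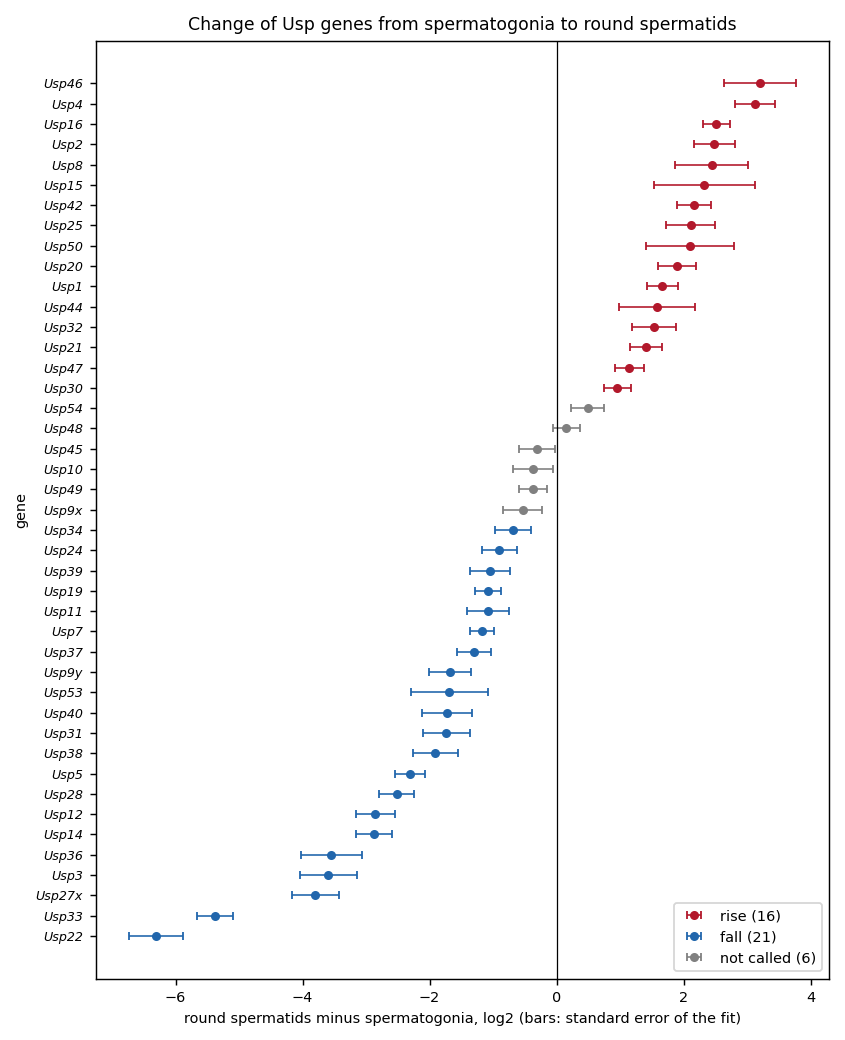
Fitted change, without a floor, of the 43 Usp genes from Sp to RS on the log2 scale (horizontal axis, with the standard error of the fit as bars), ordered by size, with 16 rises, 21 falls and 6 genes not called in separate colours. Usp22 and Usp33 stand at the low end and Usp46 and Usp4 at the high end.

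Genes with opposite courses were then set beside their promoters. RefSeq promoters (GRCm38.p6, 250 bases before to 50 bases after the start) were at hand for 36 of the 48 genes. Those of the 3 genes with the largest fitted rises from Sp to RS, and of the 3 with the largest fitted falls for which a promoter was given (Usp22 and Usp33 had none), are shown 5′ to 3′ on the gene's strand. Capitals mark matches on either strand to the motifs searched, which were the E-box (CACGTG, bound by basic helix-loop-helix factors), the motif of MYB proteins such as the pachytene regulator Mybl1 (AACNGNC), the box of the NF-Y factor known by its letters CCAAT, the cAMP response element (TGACGTCA) and the core of the interferon response element (GAAANNGAA). No matches of different motifs overlapped in the Usp promoters.
Usp46 (chr5:74068362-74068661, minus strand; rise): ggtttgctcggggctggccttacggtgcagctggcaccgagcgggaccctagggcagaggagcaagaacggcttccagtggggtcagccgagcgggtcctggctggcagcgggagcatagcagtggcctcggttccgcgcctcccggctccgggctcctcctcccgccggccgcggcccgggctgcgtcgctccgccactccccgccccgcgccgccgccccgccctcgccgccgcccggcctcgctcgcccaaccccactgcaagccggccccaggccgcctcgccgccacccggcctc
Usp4 (chr9:108347581-108347880, plus strand; rise): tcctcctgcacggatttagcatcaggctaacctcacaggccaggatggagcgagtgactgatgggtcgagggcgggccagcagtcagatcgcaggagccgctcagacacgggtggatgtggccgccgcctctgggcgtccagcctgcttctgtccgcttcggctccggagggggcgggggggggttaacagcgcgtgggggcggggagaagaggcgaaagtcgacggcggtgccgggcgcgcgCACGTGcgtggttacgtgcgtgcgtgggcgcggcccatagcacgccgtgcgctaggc
Usp16 (chr16:87454735-87455034, plus strand; rise): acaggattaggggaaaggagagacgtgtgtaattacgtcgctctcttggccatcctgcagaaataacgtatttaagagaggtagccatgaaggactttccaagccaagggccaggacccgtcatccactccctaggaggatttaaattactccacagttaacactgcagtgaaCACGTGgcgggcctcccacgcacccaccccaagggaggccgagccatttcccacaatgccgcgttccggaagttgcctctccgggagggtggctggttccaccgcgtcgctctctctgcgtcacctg
Usp27x (chrX:7375781-7376080, minus strand; fall): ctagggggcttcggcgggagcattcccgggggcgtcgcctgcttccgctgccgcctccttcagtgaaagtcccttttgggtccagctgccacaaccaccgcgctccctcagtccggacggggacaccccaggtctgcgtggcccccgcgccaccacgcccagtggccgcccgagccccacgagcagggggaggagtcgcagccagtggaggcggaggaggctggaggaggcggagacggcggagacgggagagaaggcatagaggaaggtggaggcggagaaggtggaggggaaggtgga
Usp3 (chr9:66593066-66593365, minus strand; fall): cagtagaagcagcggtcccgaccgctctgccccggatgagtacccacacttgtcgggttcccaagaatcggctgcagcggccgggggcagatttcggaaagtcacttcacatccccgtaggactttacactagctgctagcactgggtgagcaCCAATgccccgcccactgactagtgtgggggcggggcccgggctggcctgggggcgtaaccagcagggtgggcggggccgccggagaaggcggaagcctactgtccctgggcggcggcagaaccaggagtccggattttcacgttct
Usp36 (chr11:118290195-118290494, minus strand; fall): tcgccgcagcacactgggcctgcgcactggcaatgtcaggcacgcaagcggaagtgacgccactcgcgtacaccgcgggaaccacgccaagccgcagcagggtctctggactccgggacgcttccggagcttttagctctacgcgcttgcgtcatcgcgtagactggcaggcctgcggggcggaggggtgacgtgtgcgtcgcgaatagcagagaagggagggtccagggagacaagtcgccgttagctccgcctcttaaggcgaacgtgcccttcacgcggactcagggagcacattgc

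The E-box stood in the promoters of Usp4, starting 7 bases before the start of transcription, and of Usp16, 77 bases before it. It was also in those of Usp32, which rose, and of Usp31, which fell, that is in 11.1% of the Usp promoters and in 7.15% of all 32851 promoters of this length. The other motifs were in similar or lower shares of the Usp promoters than of all promoters, with MYB in 19.4% against 32.8%, CCAAT in 27.8% against 37.4% and the interferon core in 5.56% against 8.56%. The cAMP response element was in 1 of 36, that of Usp29, whose RNA was under the signal limit, against 1.79% of all promoters. A match describes the letters and no binding. The Usp promoters held a median of 27.5 CG dinucleotides, where the promoters of all protein-coding genes held 13, with a range from 2 in Usp50 to 63 in Usp7.

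The remaining probe sets of the Usp genes gave a check on the choice of probe set. Of the calls whose gene had another tested probe set, another was called in the same direction for 3 of 5 from LZ to mP, 4 of 8 from mP to D, 2 of 5 from D to RS and 18 of 23 from Sp to RS. The fall of Usp45 from D to RS was the only call with another probe set called in the opposite direction.

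The other genes of the ubiquitin pathway also moved in both directions. Among 32 tested deubiquitinases of other families, limma called 6 rises and 9 falls from LZ to mP, where 13.7% of all probe sets rose and 15.3% fell, and 8 rises and 14 falls from Sp to RS, where the shares were 31.9% and 41.2%. The latter shares of all probe sets also stand beside the counts from Sp to RS that follow. With the floor at 5 the largest changes from Sp to RS were the fall of Uchl1, a known marker of spermatogonia (-6.22), and the rises of Stambpl1 (5.18) and Mindy4 (4.85). Mysm1, an H2A deubiquitinase, and Brcc3 had fitted falls of -5.30 ± 0.36 and -5.00 ± 0.37, to means under 5 in RS, which were -2.99 and -3.48 with the floor. Of 13 cofactors of Usp enzymes 4 rose and 7 fell from Sp to RS, with the largest rise in Wdr20rt (4.94 ± 0.53). Wdr48, the activator of Usp1, Usp12 and Usp46, rose by 2.44 ± 0.37 (adjusted p = 1.61e-05), where Usp1 and Usp46 rose and Usp12 fell on its main probe set. Of the partners of Usp22 in the SAGA module, Atxn7 fell by 1.30 ± 0.30, Atxn7l3 by 0.78 ± 0.23 and Eny2 by 2.24 ± 0.22 (adjusted p = 0.00114, 0.00675 and 1.53e-07), while Atxn7l1 rose by 4.46 ± 0.42 (adjusted p = 8.99e-08). Among the 9 ligases and E2 enzymes for H2A and H2B 2 rose and 4 fell, with Ubr2 (-5.71 ± 0.47, or -4.30 with the floor), Rnf20 (-4.94 ± 0.48, or -4.21 with the floor), Rnf2 (-4.05 ± 0.46) and Rnf8 (-2.84 ± 0.21) falling and Rnf40 rising by 1.65 ± 0.20. Of the ubiquitin genes and activating enzymes only Uba1y and Uba6 were measured under the same rule for probe sets, and both fell (-3.89 ± 0.29 and -5.28 ± 0.49). Of the Isg15 pathway only Herc6, an Isg15 ligase, was tested, and it rose by 6.31 ± 0.49.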

How the data were processed

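The authors had deposited linear intensities, computed with GC-RMA (version not given in the sources used here) in GeneSpring GX from Affymetrix MOE430 version 2 arrays. The 45037 probe sets of the table were taken to log2. Symbols came from GEO's platform annotation, which lists 34945 probe sets with 1 symbol, 932 with several and 9160 not at all. Chromosomes came from RefSeq (GRCm38.p6). The gene family, gene lists and tests were chosen with earlier results of these data known.

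A model with a mean for each of the 8 fractions was fitted to the 20 arrays by limma 3.58.1 (R 4.3.3), and its moderated tests had 12 residual plus 3.69 prior degrees of freedom. They were two-sided, and p-values were adjusted (Benjamini-Hochberg, threshold 0.05) across all 22396 probe sets with log2 signal of at least 5 in at least 2 arrays, and errors are SE of the fit unless named SD. The median linear signal per array was 11.1 to 12.7. The number of arrays limits the precision, above all with 2 arrays each of mP and D. Arrays were assigned to fractions by the labels, which call them biological replicates. Array projects were found by matching signals to columns of the study's cluster table, each array being equal to 1 column at 100% of 2100 probe sets.

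Values of every array are given for the sex-linked genes, the 8 genes with the widest range of fraction means among those past the F test, and the 3 largest rises and falls of each step. Pathway lists name at most 4 genes for each list and step, and Atxn7, Atxn7l3, Rnf40 and Mindy4 were added after their values were seen. Alternatives were no filter, a floor at 5, median centring, quantile normalization, an intensity trend with robust prior, replicate number or array project as a block, the mean over a gene's probe sets, and each replicate left out. Leaving out Sp replicates 1 and 2 (most spermatid marker signal in Sp) and pL replicate 1 (macrophage marker signal) together was added after the data were examined. For each step, results with 1 replicate left out cover only the replicates of its own fractions. The single eP and lP arrays were never left out. The fits were tested on simulated data. Tables and plots used Python 3.11.15, numpy 2.4.6, pandas 2.3.3 and matplotlib 3.10.9.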

Additional observations from a re-analysis of the deposited data

Results flagged for a closer look

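Of 40 groups of 4 arrays looked at (Sp and RS of 20 genes), 2 held an array far from the others, where about 1 in 20 is flagged by chance. Usp40 stood at a log2 signal of 6.51 in Sp replicate 2 and at 7.15 to 7.22 in the other Sp arrays, and the gap was 0.908 of the range. Usp26 stood at 2.42 in RS replicate 3 and at 2.52 to 2.54 in the other RS arrays, all far under the signal limit, and the gap was 0.850 of the range.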

How the results depend on the processing

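No called change of a Usp gene reversed under the alternative fits, although within 1 array project the difference of Usp44 from Sp to RS was -0.26 in place of 1.58, and another Usp45 probe set rose from D to RS. Of 69 called changes 67 kept their call with the array project as a block, 68 with the replicate block, 68 with median centring, 68 with an intensity trend, 64 with quantile normalization, with no filter and with the floor at 5, 63 with the mean over probe sets and 62 without Sp replicates 1 and 2 and pL replicate 1; 389 of 454 did so with 1 replicate left out. From Sp to pL (0 genes called) the count was 2 with the replicate block, 2 with the array project as a block and 1 with the mean over probe sets, and from pL to LZ (0 called) it was 1 with the floor, 1 with the replicate block and 1 with the array project as a block. From LZ to mP (10 called) it was 22 with the replicate block and 24 with the array project as a block, while the share of all probe sets called went from 28.9% to 39.9% and 40.6%. Arrays with equal replicate numbers had deviations with a median correlation of 0.335 over 37 pairs (lowest -0.17), against -0.115 over 96 pairs with different numbers, and were not taken as paired because some pairs lay under 0.1. Arrays of 1 project had a median of 0.439 over 21 pairs (lowest 0.123), against -0.0856 over 112 pairs of different projects. By the same limit of 0.1 the project would count as a pairing, but it was a term only in the fit with it as a block. Unless stated otherwise, steps given as not called refer to the main fit, without the project.

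With 1 replicate left out the counts were 39 to 41 in the F test, 0 to 1 from Sp to pL, 0 to 0 from pL to LZ, 1 to 9 from LZ to mP, 3 to 9 from mP to D, 5 to 11 from D to RS and 35 to 38 from Sp to RS, and an array left alone in its fraction was taken to vary like the other fractions. Of the calls, 1 of 10, 3 of 12, 3 of 10 and 33 of 37 held in all of these fits at the 4 steps with calls. Median centring gave 4 rises and 6 falls from LZ to mP in place of 3 and 7, and quantile normalization 5 rises and 4 falls from D to RS in place of 4 and 6; the cause was not tested. Signals under a log2 value of 5 carry little information on size.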
